A study of Mus musculus with 9 samples.

Results

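The TRIM (tripartite motif) genes form a family of ubiquitin ligases, and their transcripts were followed in microglia (macrophages that live in the brain) at 3 times after a traumatic brain injury. Members were taken by symbol: Trim followed by a number and at most 1 letter, leaving out Trim30a, with at least 1 CPM (counts scaled to a library total of 1000000) in at least 3 of the 9 libraries. The count table listed 66 such symbols, and 41 passed, among 15041 genes tested of 49671 listed. Of the 25 TRIM symbols that did not pass, 18 had no read in any library and 7 had at least 1. Trim46, Trim17 and Trim66 lay just inside the filter, with 1 CPM or more in exactly 3 libraries. Trim30c lay just outside it, with 1 CPM or more in 2 libraries, a highest value of 6.34 CPM and 117 reads in all.

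The study followed the transcriptome of microglia over time after injury. Male C57BL/6 mice carrying CD45.2 had their heads shielded during 1000 cGy of irradiation at 8 weeks of age, were given busulfan at 30 mg/kg and received CD45.1 marrow from male B6.SJL-Ptprca Pepcb/BoyJ donors. At 16 weeks these chimeras took a controlled cortical impact at 2.5 m/s to a depth of 2 mm, and CD45.2 cells were sorted as microglia at day 7, day 30 or day 90. There were 3 libraries at each time and 9 chimeras in all, so each library is taken here as 1 mouse. Injury, chimerism, irradiation and busulfan were common to all 9 libraries. No uninjured library was analysed here, so each comparison is between times after injury. The marrow marker separates host from donor cells, and host CD45.2 cells of other kinds that resist irradiation carry the same marker. Libraries were made from the 3′ ends of mRNA, so CPM were not divided by transcript length, and levels of different genes below are ranks on this CPM scale.

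Library depth was 7210985 to 12965926 reads. The microglial genes Cx3cr1 (3926 to 9024 CPM), P2ry12 (767 to 1657 CPM) and Tmem119 (751 to 1304 CPM) were high in all 9 libraries. Of 8 B cell markers Cd79a, Ms4a1 and Pax5 were at 0 in all 9, and the list summed to 162 to 394 CPM, led by Ighm. Monocyte markers (14, led by Nr4a1) summed to 1307 to 2288 CPM and neutrophil markers (10, led by S100a8) to 1.61 to 247 CPM. Nr4a1 alone had a mean of 1228 CPM, while the median level of the tested monocyte markers was 5.76 CPM. Neuronal and endothelial transcripts were present in every library. Endothelial markers are given beside Trim47, and neuronal markers beside the NHL and COS-box members. Replicate 1 of day 90 stood apart, with a median correlation of 0.837 with the other libraries (0.866 to 0.887 for the remaining 8) and the fewest detected genes, 14039.

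Most TRIM proteins carry a RING finger, which brings a ubiquitin-loaded E2 enzyme to a substrate, followed by B-box zinc fingers and a coiled coil through which they assemble. The C-terminal domain varies between members and sets the target: a PRY-SPRY domain in most, a PHD finger with a bromodomain in the chromatin-bound members, NHL repeats or a COS box in members best known from neurons. Many PRY-SPRY members are induced by interferon and act in innate immunity, restricting viruses or attaching ubiquitin to sensors of foreign nucleic acid such as RIG-I and to the proteins that signal from them.

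The 41 members lay on many chromosomes, with 12 on chromosome 7 and 9 on chromosome 11 (mm10, GENCODE positions). Of those on chromosome 7, 9 lay in a window from 102557921 to 104507849, called the cluster below, and all 9 were PRY-SPRY members. They were Trim12a, Trim12c, Trim21, Trim30b, Trim30d, Trim34a, Trim5, Trim6 and Trim68. The bounds of the window were a choice. Within it Trim21 and Trim68 lie apart, ending by 102687327, while the others start from 104218793. The NHL member Trim3, from 105604463, falls outside. A promoter, 250 bases before to 50 after the start of a gene, was found in RefSeq (GRCm38.p6) for 31 of the 41. The core of the interferon-stimulated response element, GAAA, any 2 bases and GAAA again, on either strand with overlapping matches counted, was in a listed promoter of 8 of these 31 (25.8%), beside 3.99% of 27025 genes with a promoter and 3.83% of 10314 tested genes. The 8 were Trim12a, Trim12c, Trim21, Trim30d, Trim34a and Trim5 of the cluster, with Trim26 and Trim2. The GC box, GGGCGG on either strand, was in 21 of 31 (67.7%), beside 68.3% of tested genes. These are matches of letters in a window and say nothing of a factor bound there.

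The cluster was defined by position alone. No match to the interferon element was found for Trim6, Trim30b and Trim68. The stretches below show the element near the start of the gene in 6 of its members. Trim12a, Trim12c and Trim5 hold it as the same letters on the printed strand. Each stretch runs 5′ to 3′ on the gene's own strand from 100 bases before the start to base 30 after it. Capitals mark the element as read on that strand. In Trim21, Trim34a and Trim12a the first match begins 14, 11 and 11 bases into the gene.
Trim21, chr7:102565453-102565582, minus strand: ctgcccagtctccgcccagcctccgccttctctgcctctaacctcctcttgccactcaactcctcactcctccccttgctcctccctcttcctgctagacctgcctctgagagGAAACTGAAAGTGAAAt
Trim34a, chr7:104244357-104244486, plus strand: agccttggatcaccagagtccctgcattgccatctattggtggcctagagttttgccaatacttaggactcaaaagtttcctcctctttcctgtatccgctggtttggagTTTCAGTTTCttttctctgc
Trim12a, chr7:104315466-104315595, minus strand: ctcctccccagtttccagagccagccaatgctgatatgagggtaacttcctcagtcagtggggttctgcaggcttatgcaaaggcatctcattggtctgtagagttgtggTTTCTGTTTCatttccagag
Trim12c, chr7:104353320-104353449, minus strand: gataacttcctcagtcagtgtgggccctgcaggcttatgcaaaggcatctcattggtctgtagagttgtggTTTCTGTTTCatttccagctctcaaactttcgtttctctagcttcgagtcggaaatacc
Trim5, chr7:104288077-104288206, minus strand: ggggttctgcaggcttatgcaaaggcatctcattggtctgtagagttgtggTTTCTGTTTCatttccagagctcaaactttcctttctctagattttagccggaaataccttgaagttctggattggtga
Trim30d, chr7:104507820-104507949, minus strand: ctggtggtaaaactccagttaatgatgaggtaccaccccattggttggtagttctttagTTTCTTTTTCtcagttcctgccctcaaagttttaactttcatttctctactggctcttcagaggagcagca

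The next stretches, from 200 bases before the start to base 30, belong to 3 members whose values are given in full below. In Trim26 the capitals mark a pair of overlapping matches to the element. Trim25 and Trim47 had no match to the element in their windows, and there the capitals mark the GC box on either strand.
Trim26, chr17:36836946-36837175, plus strand: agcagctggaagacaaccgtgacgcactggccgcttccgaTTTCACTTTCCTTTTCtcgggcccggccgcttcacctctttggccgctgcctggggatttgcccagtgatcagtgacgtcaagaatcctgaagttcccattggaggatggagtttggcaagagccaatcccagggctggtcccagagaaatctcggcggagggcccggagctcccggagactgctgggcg
Trim25, chr11:88999203-88999432, plus strand: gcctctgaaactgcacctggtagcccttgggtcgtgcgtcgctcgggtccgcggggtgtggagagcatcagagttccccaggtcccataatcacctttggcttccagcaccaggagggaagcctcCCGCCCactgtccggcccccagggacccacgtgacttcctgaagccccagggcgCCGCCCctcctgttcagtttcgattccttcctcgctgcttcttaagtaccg
Trim47, chr11:116110206-116110435, minus strand: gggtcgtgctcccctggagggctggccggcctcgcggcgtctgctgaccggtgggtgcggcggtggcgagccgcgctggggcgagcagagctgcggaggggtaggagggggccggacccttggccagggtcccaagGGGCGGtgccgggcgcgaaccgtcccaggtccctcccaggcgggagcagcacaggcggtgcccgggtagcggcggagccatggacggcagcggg

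The 41 members together took 1344, 1183 and 1418 CPM in the day 7 libraries, 1516, 1492 and 1436 CPM at day 30 and 1501, 1518 and 1448 CPM at day 90. The day 7 libraries were the lowest 3 of the 9. Without Trim47 the sums ran from 1113 to 1291 CPM at day 7, 1235 to 1376 at day 30 and 1205 to 1331 at day 90, and the groups overlapped. The 5 most abundant members, Trim47, Trim35, Trim41, Trim28 and Trim8, held 42.0% of the family's CPM. By mean level 12 members were at 50 CPM or more, 13 between 10 and 50, and 16 under 10. In 30 members every library had at least 1 CPM, and 11 had a library at 0.

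**Figure D1:**
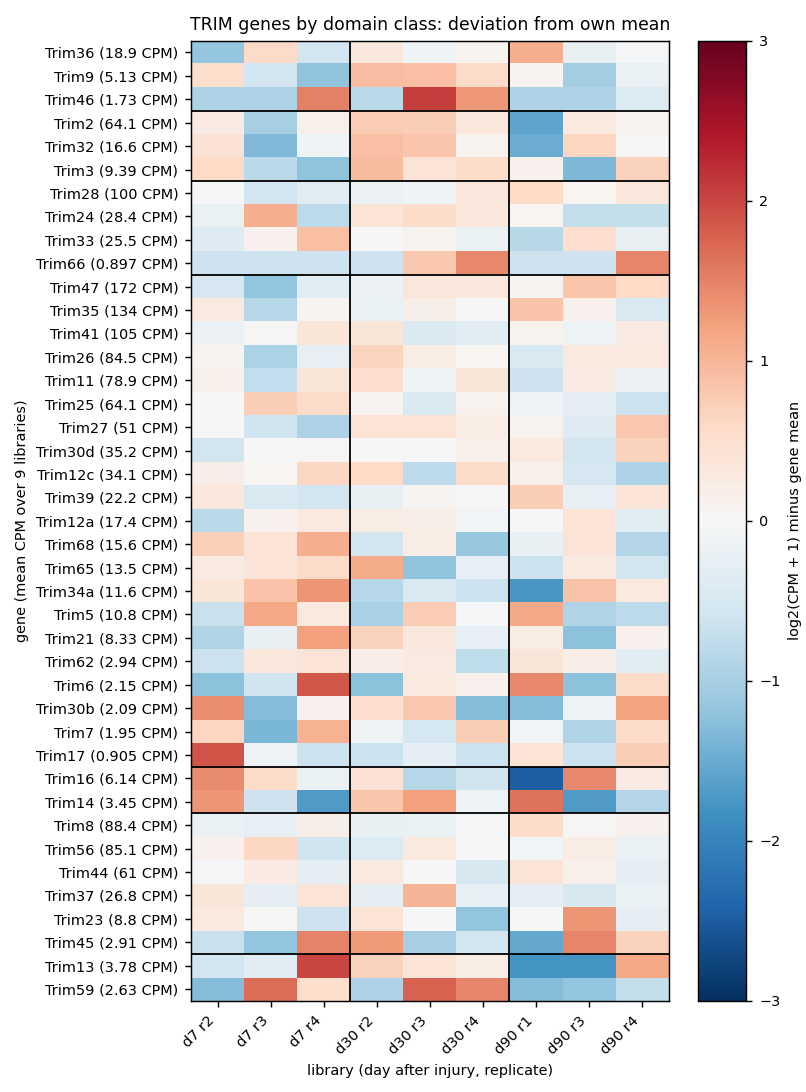
Deviation of each of the 41 TRIM members from its own mean on the log2(CPM + 1) scale (colour, red above and blue below) in the 9 libraries (columns, by day and replicate). Rows are grouped by domain class, from the top COS box, NHL repeat, PHD-bromodomain, PRY-SPRY with RING, PRY-SPRY without RING, other and transmembrane, and give mean CPM in brackets, 172 for Trim47. The deepest colours are mostly in members with a mean under 10 CPM.

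Of the 41 members 1, Trim47, rose between day 7 and day 90, and no change was called in the other 40. Tests were made with limma on log2(CPM + 1) over all 15041 genes, with Benjamini-Hochberg adjustment and a threshold of 0.05. The spread they use is that between these mice, moderated toward a trend of spread with level over all genes. For each gene the mice gave 6 degrees of freedom and the trend 28.4. Changes on this scale understate those of genes with few reads. In bulk samples fewer cells of a type and less RNA per cell cannot be told apart.

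Between day 7 and day 90, 1 of 41 members (2.44%) passed, beside 0.246% of all genes (37 genes). Of those 37 genes, 6 were higher at day 90, or 0.0399% of genes tested. At an unadjusted p under 0.05 there were 3 members (7.32%, with Trim47 and Trim28 higher and Trim25 lower), beside 7.73% of all genes. Groups that did not overlap were found in 4 members (9.76%), beside 11.7% of genes, with Trim68 the fourth. At the unadjusted threshold and for groups without overlap, the share of members was thus near that of all genes, as 1 member is 2.44%. The median member differed by -0.00 on the log2 scale, with 20 higher and 21 lower, beside a median of -0.02 over all genes.

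Between day 7 and day 30, limma called 0 of 41 members, beside 0.0% of all genes. On the reads recovered from the CPM, edgeR called 0 members and 0 of all genes, and DESeq2 called 0 members and 34 of all genes. At an unadjusted p under 0.05 there were 6 members (14.6%), beside 6.24% of all genes: Trim47, Trim26, Trim2 and Trim27 were higher at day 30, Trim68 and Trim34a lower. Groups did not overlap in 6 members (14.6%), beside 12.6% of genes. The median member differed by 0.05, beside 0.04 over all genes. Between day 30 and day 90, 0 members were called by limma, edgeR or DESeq2, beside 0.0532% of genes (8 genes) by limma, and 1 member (Trim2, lower) had an unadjusted p under 0.05, beside 5.03% of genes. Groups did not overlap in 4 members (9.76%), beside 9.93% of genes: Trim8 was higher at day 90, and Trim2, Trim24 and Trim9 were lower. A test of any difference among the 3 times (moderated F) called 0 members, beside 0.173% of genes (26 genes). At an unadjusted p under 0.05 it gave 4 members, Trim47, Trim25, Trim2 and Trim27, beside 6.87% of genes. For any difference among the times, edgeR called 0 members and 16 of all genes, and DESeq2 called 1 member, Trim47, and 53 of all genes.

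**Figure D2:**
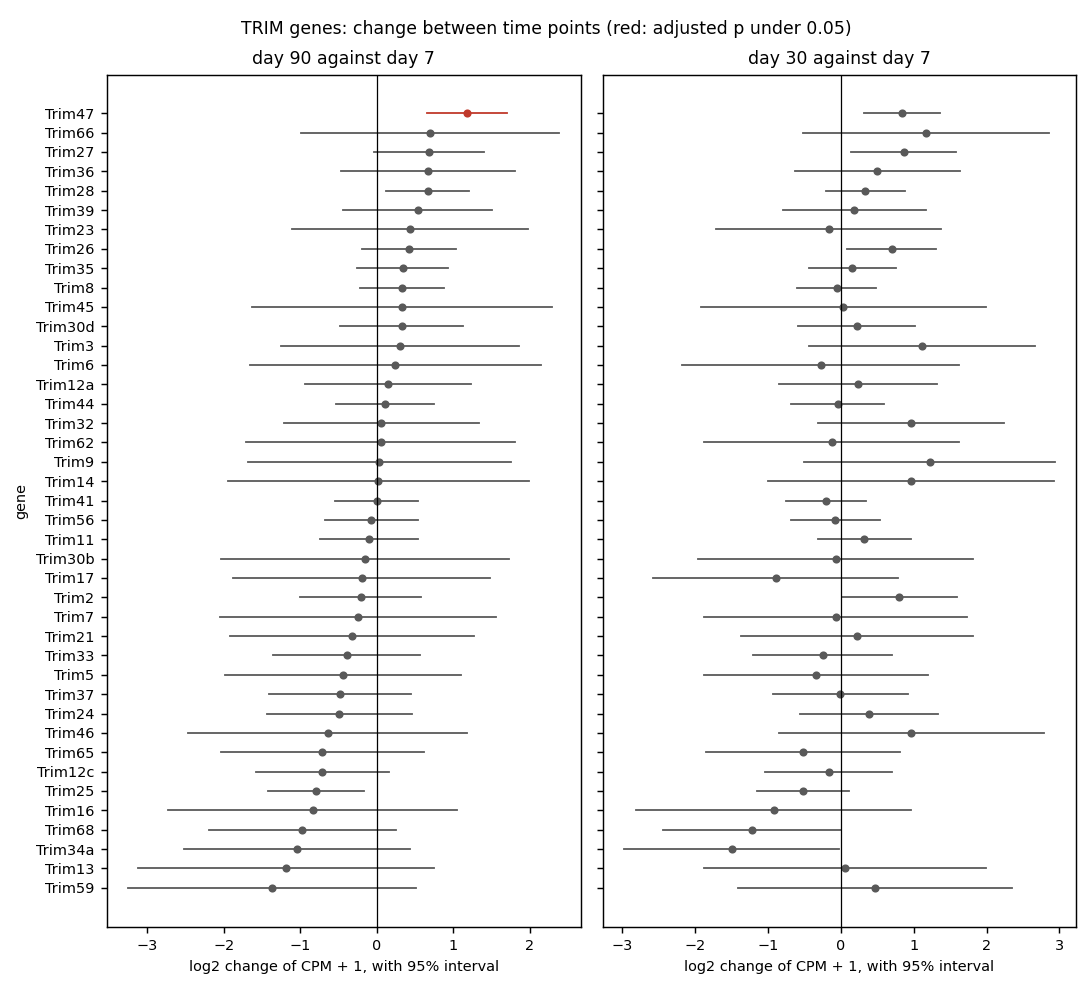
Log2 change of CPM + 1 (x axis, points) with its 95% interval from limma (lines) for each of the 41 members, at day 90 against day 7 (left) and day 30 against day 7 (right), in the order of the left panel. The interval of Trim47 at day 90, the only one in red for an adjusted p under 0.05, runs from 0.66 to 1.70, and most intervals include 0.

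Among the PRY-SPRY members with a RING finger, 21 in all, Trim47 was the most abundant. Trim47 (ENSMUSG00000020773, chr11:116105752-116127210, minus strand) encodes a ligase described in vascular endothelium and in inflammatory signalling. Its level was 111, 69.9 and 127 CPM in the day 7 libraries, 140, 203 and 201 CPM at day 30, and 170, 283 and 243 CPM at day 90. Every library of day 30 and of day 90 lay above every library of day 7, and days 30 and 90 overlapped. The mean was 103 ± 29.5 CPM at day 7, 181 ± 35.5 at day 30 and 232 ± 57.5 at day 90 (SD, n = 3 each). From day 7 to day 90 it rose by 1.18 ± 0.26 on the log2 scale (SE, limma adjusted p = 0.0253), and all 3 day 90 libraries showed the direction. The change to day 30 was 0.84 (adjusted p = 0.426), and that from day 30 to day 90 was 0.34, with an interval from -0.18 to 0.86.

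The rise of Trim47 kept its direction in all 21 alternatives run, between 0.93 and 1.39, but its call was lost in 9 of them, with limma, edgeR or DESeq2 adjusted p from 0.00311 to 0.533. It was lost by edgeR (adjusted p = 0.147) and when any 1 of 5 libraries was left out: replicate 2 (adjusted p = 0.0972) or 3 (0.211) of day 7, replicate 4 of day 30 (0.0522), or replicate 3 (0.258) or 4 (0.111) of day 90. DESeq2 kept it (adjusted p = 0.00639). The 17 endothelial markers, of which Flt1 was the most abundant, all passed the filter and summed to 3751 to 6192 CPM at day 7, 2879 to 4074 at day 30 and 2552 to 6925 at day 90. Against day 7, 14 of the 17 were lower at day 90 (median -0.35). By limma 0 of the 17 were called and 2 had an unadjusted p under 0.05, beside 7.73% of all genes. By edgeR and DESeq2 0 were called. Without replicate 1 of day 90, the library with the highest sum, all 17 were lower (median -0.72) and 2 were called, Abcb1a and Slco1a4. Without replicate 4 of day 90, 7 of 17 were higher and the median was -0.16. The part of endothelial transcripts in the Trim47 level was not tested. Trim65, whose annotated span overlaps that of Trim47 on the same strand, was at 4.66 to 27.5 CPM and differed by -0.71 from day 7 to day 90 (adjusted p = 0.838). Trim65 had Trim47 annotated over its 3′ end on the same strand. The strand setting of the counting, not given in the sources used here, would not separate reads of this pair.

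**Figure D3:**
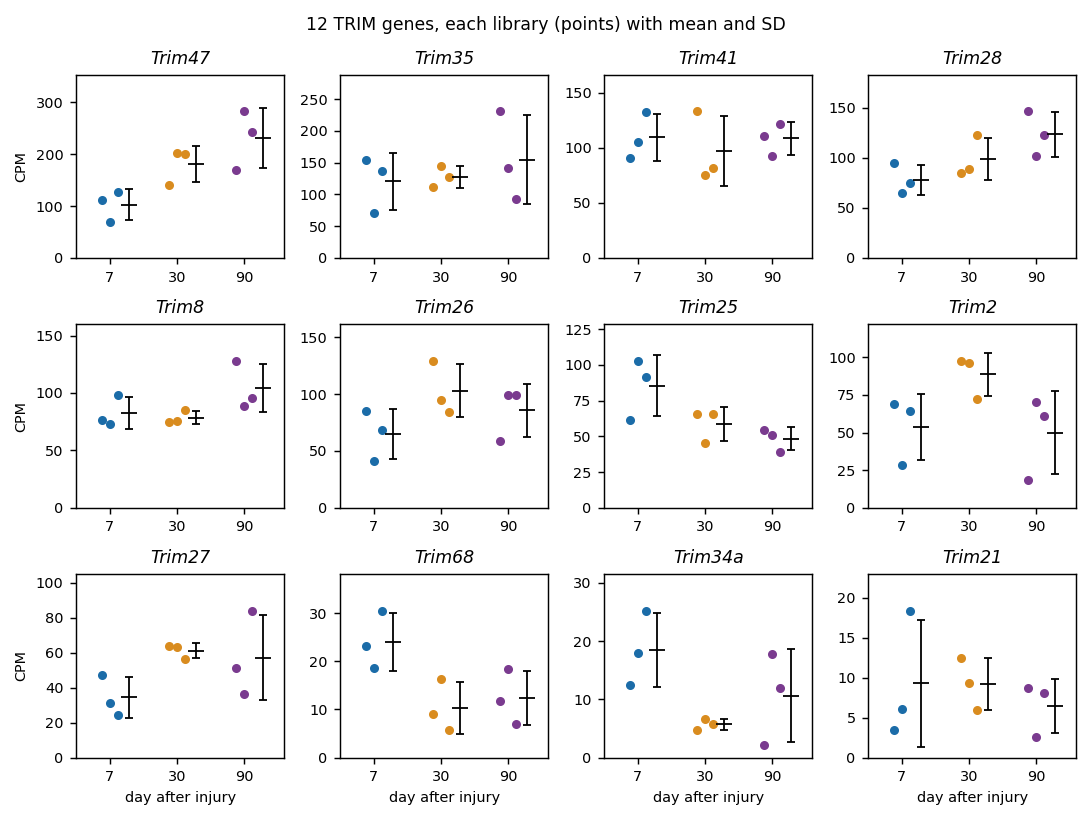
CPM (y axis) in each library (points) by day after injury (x axis), with the group mean and SD beside them, for 12 TRIM members (n = 3 a group). The Trim47 panel shows all 6 libraries of days 30 and 90 above the 3 of day 7, and the Trim25 panel shows the 3 day 90 libraries below the 3 of day 7.

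Trim25 and Trim21 are the PRY-SPRY members best known for innate immunity. Trim25 (ENSMUSG00000000275, chr11:88999376-89020293, plus strand), the ligase that adds ubiquitin to RIG-I, was at 61.4, 103 and 91.8 CPM at day 7, 65.3, 45.2 and 65.9 at day 30, and 54.7, 50.8 and 39.2 at day 90. The day 90 libraries all lay below those of day 7, without overlap, while day 30 overlapped both. The mean was 85.3 ± 21.4 CPM at day 7 and 48.2 ± 8.08 at day 90, a difference of -0.79 with an interval from -1.42 to -0.16 that did not pass over all genes (limma adjusted p = 0.46). Trim21, a receptor for antibody inside cells, was at 3.46, 6.10 and 18.4 CPM at day 7, 12.4, 9.33 and 5.96 at day 30 and 8.74, 2.56 and 8.03 at day 90. Its groups overlapped, and its difference from day 7 to day 90 was -0.32 (adjusted p = 0.96).

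Trim34a and Trim68 of the chromosome 7 cluster were lower at day 30 than at day 7 at an unadjusted p under 0.05. Trim34a was at 12.5, 17.9 and 25.2 CPM at day 7, 4.78, 6.64 and 5.69 at day 30, and 2.14, 17.8 and 11.9 at day 90, so that day 30 lay wholly below day 7 and day 90 overlapped both. Its difference at day 30 was -1.50 (limma adjusted p = 0.793), and 22.2% of the 50-base stretches at its 3′ end are shared with its neighbour Trim34b, which had no read. Trim68 was at 23.2, 18.6 and 30.5 CPM at day 7, 9.10, 16.3 and 5.69 at day 30, and 11.7, 18.3 and 7.02 at day 90. Both later groups lay below day 7, by -1.22 at day 30 (adjusted p = 0.796). In the cluster, 6 of 9 members were lower than day 7 at day 30, and 6 of 9 at day 90, with medians of -0.17 and -0.32. Of the 8 members with the interferon element in a promoter, 5 were higher and 3 lower at day 30, and 3 were higher and 5 lower at day 90, with medians of 0.22 and -0.27 against day 7.

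Trim26 and Trim27, which act on antiviral and inflammatory signalling, were higher at day 30 than at day 7 at an unadjusted p under 0.05. Trim26 was at 84.8, 41.3 and 68.3 CPM at day 7, 129, 95.1 and 84.6 at day 30, and 58.8, 99.3 and 98.9 at day 90. The lowest day 30 library fell just under the highest of day 7, and the difference was 0.70 (limma adjusted p = 0.756), or 0.41 without replicate 3 of day 7. Trim27 was at 47.4, 31.5 and 24.6 CPM at day 7, 64.0, 63.6 and 56.2 at day 30, and 51.3, 36.3 and 84.1 at day 90. Its day 30 libraries were close together and above all of day 7, by 0.86 (adjusted p = 0.725), and day 90 overlapped both.

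Trim35 and Trim41 followed Trim47 in abundance. Trim35, which acts in antiviral signalling, was at 154, 70.3 and 136 CPM at day 7, 111, 145 and 127 at day 30 and 231, 141 and 92.6 at day 90, and all groups overlapped. Trim41, a ligase for viral nucleoproteins, was at 90.4, 106 and 133 CPM at day 7, 133, 75.8 and 81.8 at day 30 and 111, 92.4 and 122 at day 90, again with overlap throughout. The annotated 3′ end of Trim41 lies within Rack1, which encodes a scaffold protein of the ribosome, on the opposite strand, and reads from the pair cannot be told apart without the strand. Rack1 was at 655 ± 30.6 CPM at day 7 and 350 ± 31.3 at day 90 (SD, n = 3 each), where it fell by 0.91 on the log2 scale (limma adjusted p = 0.0169). Trim41 differed by -0.00 over the same interval of time. Over all 21 PRY-SPRY members with a RING, 9 were higher and 12 lower at day 90 than at day 7 (median -0.10).

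The PHD-bromodomain class had 4 members that passed the filter, Trim24, Trim28, Trim33 and Trim66, which work as transcriptional cofactors. Trim28 (ENSMUSG00000005566), the corepressor that KRAB zinc finger proteins bring to retroelements, was at 94.5, 64.3 and 74.7 CPM at day 7, 85.1, 88.4 and 122 at day 30, and 146, 102 and 123 at day 90. All day 90 libraries lay above those of day 7, and day 30 overlapped both. The difference from day 7 to day 90 was 0.66, with an interval from 0.12 to 1.20, and did not pass over all genes (limma adjusted p = 0.499). Of 18 tested partners in Trim28 repression (Setdb1, the HP1 genes, the HUSH complex, SUMO and others), 0 were called in any comparison by limma, edgeR or DESeq2. At an unadjusted limma p under 0.05 there was 1 of 18 partners, Morc2a, at day 30 against day 7, beside 6.24% of all genes. At day 90 against day 7 there was 1, Mphosph8, beside 7.73% of all genes. In that comparison 13 of the 18 were higher (median 0.17), beside 7278 of 15041 genes tested (median -0.02). Mphosph8, a HUSH subunit, differed by 0.67 (limma adjusted p = 0.629). Trim24 is named only because its groups did not overlap, a choice made after its values were seen. It was at 34.6, 38.2 and 32.3 CPM at day 30 and 26.9, 15.3 and 15.4 at day 90, and at 14.6 to 55.6 CPM at day 7.

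The NHL members Trim2, Trim3 and Trim32 and the COS-box members Trim9, Trim36 and Trim46 all had a higher mean log2 level at day 30 than at day 7, without a call. For Trim46 the filter partly set this direction, as given below. Trim2, which adds ubiquitin to neurofilament light chain in neurons, was at 68.9, 28.3 and 64.0 CPM at day 7, 97.6, 96.3 and 72.1 at day 30 and 18.4, 70.1 and 61.0 at day 90. The day 30 libraries lay above all others, by 0.80 over day 7 (limma adjusted p = 0.793), or 0.40 without replicate 3 of day 7, and day 90 differed from day 30 by -1.01 (adjusted p = 0.933), or -0.42 without replicate 1 of day 90. Trim9, named after its values were seen because its groups did not overlap, was at 6.82, 2.63 and 1.33 CPM at day 7, 9.18, 9.06 and 7.10 at day 30, and 4.73, 1.61 and 3.72 at day 90. Over the 3 NHL members the median was 0.96 from day 7 to day 30 and -0.90 from day 30 to day 90.

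Neuronal markers, like these TRIM members, were higher at day 30 than at day 7. So were 10 of 12 microglial markers (median 0.33), and 10 of 12 were lower at day 90 than at day 30 (median -0.18). Of 17 neuronal markers tested, led in abundance by the noncoding RNA Meg3, 17 were higher at day 30 than at day 7 (median 0.71). At day 90, 15 were lower than at day 30 (median -0.52). In either comparison 0 were called by limma, edgeR or DESeq2. At an unadjusted limma p under 0.05 there were 6 and 4 of the 17, beside 6.24% and 5.03% of all genes. Their sum was 1227 to 1446 CPM at day 7, 1744 to 3467 at day 30 and 1170 to 2033 at day 90, and no marker of the list was at 0 in all libraries. A list of 5 TRIM genes known from neurons, tested or not, summed to 35.1 to 88.3 CPM at day 7. The sum was 97.1 to 123 CPM at day 30 and 32.0 to 78.7 at day 90. Its 4 tested members were Trim2, Trim3, Trim9 and Trim46. Trim46 had 1 CPM or more in only 3 libraries, replicate 4 of day 7 and replicates 3 and 4 of day 30. It had 0, 0 and 50 reads at day 7, 1, 78 and 42 at day 30 and 0, 0 and 5 at day 90. The filter thus partly set its direction, and the medians below include it. All 4 tested members were higher at day 30 than at day 7 (median 1.04) and lower at day 90 than at day 30 (median -1.10). The list left out the COS-box member Trim36 and the NHL member Trim32. Trim36 differed by 0.50 from day 7 to day 30 and by 0.17 from day 30 to day 90. For Trim32 the differences were 0.96 and -0.90. The part of neuronal transcripts in these TRIM levels was not tested.

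The remaining members have other C-terminal parts or none that is well known. Trim8, a regulator of cytokine signalling, was at 76.3, 72.7 and 98.6 CPM at day 7, 74.4, 75.8 and 85.5 at day 30, and 128, 89.0 and 95.9 at day 90. Its day 90 libraries lay above those of day 30 and overlapped day 7, with a difference of 0.39 from day 30 to day 90 (limma adjusted p = 0.959). Of the 6 members in this class, 1 was higher at day 30 than at day 7 and 4 were higher at day 90. The transmembrane members Trim13 and Trim59 were both lower at day 90 (median -1.28 against day 7), without a call. Trim14 and Trim16, which carry a PRY-SPRY domain but no RING, had changes of 0.02 and -0.84 from day 7 to day 90.

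Interferon response genes were nearly all lower after day 7, while TRIM members known to be induced by interferon were mixed in direction. The list of interferon response genes held no TRIM gene, with 35 genes in the count table and 33 tested. Its 35 genes summed to 2391 to 2904 CPM at day 7, 1255 to 1279 at day 30 and 1047 to 1435 at day 90. Of the 33, 31 were lower at day 30 than at day 7 (median -1.07) and 32 at day 90 (median -1.30). At an unadjusted limma p under 0.05, 21 were lower at day 30 and 21 at day 90, beside 403 and 639 of all 15041 genes. Limma called 0 at day 30 and 2 at day 90, Lgals3bp and Bst2, against day 7. From day 7 to day 90 Lgals3bp fell by 1.60 and Bst2, which tethers budding virus, fell by 1.35 (limma adjusted p = 0.00488 for Bst2). The same 2 were called at day 90 by edgeR and DESeq2, and by DESeq2 also at day 30. The call of Bst2 was lost with no filter (adjusted p = 0.408) and without replicate 3 of day 7 (0.0709) or replicate 3 of day 90 (0.0696). Without replicate 1 of day 90, 4 were called at day 30 and 4 at day 90. Monocyte and neutrophil markers were also mostly lower than at day 7: 10 of 11 tested monocyte markers at both later times (medians -0.94 and -0.88), and 6 of 7 tested neutrophil markers at day 30 and 5 of 7 at day 90 (medians -1.59 and -1.50), with 1 neutrophil marker called by limma at day 90. Their part in the interferon response levels was not tested. The list of interferon-induced TRIM genes held 12, of which 10 were tested. The tested members were Trim12a, Trim12c, Trim14, Trim21, Trim25, Trim26, Trim30b, Trim30d, Trim34a and Trim56. All 12 summed to 334 to 383 CPM at day 7, 339 to 384 at day 30 and 305 to 336 at day 90. At day 30 against day 7, 5 of the 10 tested were higher and 5 lower. Their median of 0.07 turned negative in some alternatives (to -0.08 without replicate 2 of day 7). At day 90 against day 7, 4 were higher and 6 lower (median -0.11), and 0 were called in any comparison by limma, edgeR or DESeq2. At an unadjusted limma p under 0.05 there were 2 of 10 at day 30 against day 7 (Trim26 higher, Trim34a lower). There was 1 at day 90 against day 7 (Trim25, lower) and 0 at day 90 against day 30. Over all genes the shares in these comparisons were 6.24%, 7.73% and 5.03%. The difference between these lists was not tested.

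**Figure D4:**
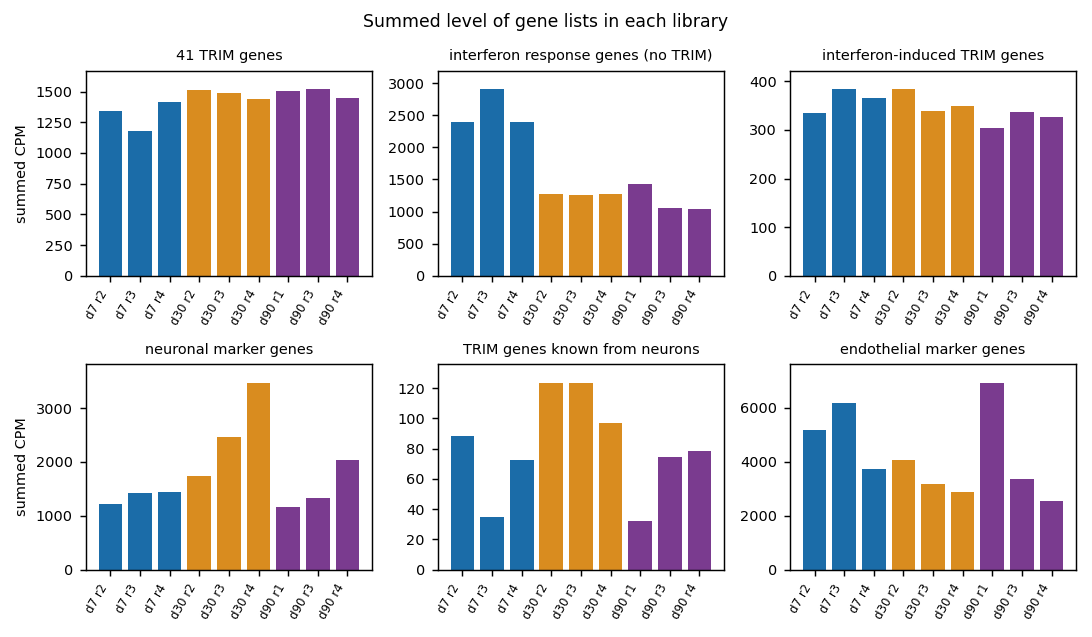
Summed CPM of 6 gene lists (panels) in each library (bars, coloured by day). Sums take all listed genes, tested or not. The interferon response genes sum to 2391 CPM or more at day 7 and at most 1435 later, while the interferon-induced TRIM genes stay between 305 and 384 CPM.

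Partners of the family were tested from lists of their own. Of 29 genes of the nucleic acid sensor pathway, limma, edgeR and DESeq2 each called 1, Irf7, at day 90 against day 7, and DESeq2 also called it at day 30. Irf7, the transcription factor that amplifies interferon, was at 36.8, 80.2 and 81.7 CPM at day 7, 17.7, 24.8 and 6.83 at day 30 and 11.6, 11.5 and 10.5 at day 90, with all later libraries below day 7. It fell by 2.38 on the log2 scale from day 7 to day 90 (limma adjusted p = 0.0207). This call was lost with a pseudocount of 0.1, with no filter, and without replicate 3 or 4 of day 7 or replicate 3 or 4 of day 90, with adjusted p from 0.000361 to 0.408 over the alternatives. The median of the 29 was 0.04 at day 30 and -0.11 at day 90 against day 7. Of 33 ubiquitin E1 and E2 enzymes, which hand ubiquitin to RING ligases, 0 were called by limma, edgeR or DESeq2. At an unadjusted limma p under 0.05, 2 were higher at day 30 than at day 7 (6.24% of all genes passed in either direction). Likewise 1 was higher at day 90 than at day 7 (7.73%), and 1 (Ube2l6) was lower at day 90 than at day 30 (5.03%). The smallest p belonged to Ube2e3 at day 30 against day 7 (a difference of 1.63, adjusted p = 0.425). TRIM family members with other symbols, Pml, Mid1 and Mid2, were also tested, with 0 called by limma, edgeR or DESeq2. Mid1 (lower at day 90 than at day 7) was the 1 with an unadjusted limma p under 0.05, beside 7.73% of all genes. Pml, which builds nuclear bodies, was at 8.63 to 16.2 CPM at day 90 and 15.0 to 31.4 CPM at day 7.

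Spread between mice was near that of other genes of the same level in members under 50 CPM and somewhat wider in members above. Among genes with a mean of 50 CPM or more the median residual SD on the log2 scale was 0.40 for the 12 members and 0.32 for all genes. It was 0.58 and 0.59 between 10 and 50 CPM, and 1.07 and 1.06 under 10 CPM. The median ratio of the variance between mice to that of counting alone was 42.1 for the members and 38.0 for all genes, so counting made up a small share of it.

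**Figure D5:**
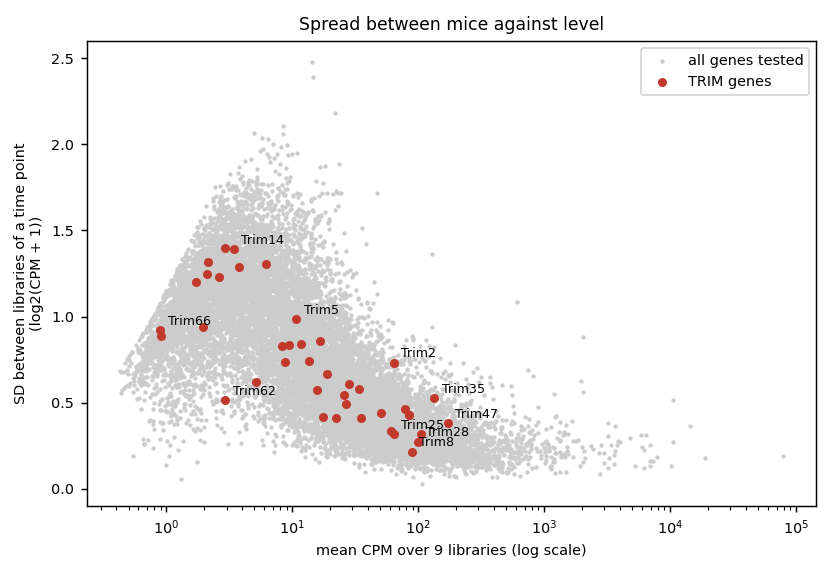
SD between libraries of a time point on the log2(CPM + 1) scale (y axis) against mean CPM (x axis, log scale) for all genes tested (grey) and the 41 TRIM members (red). The members lie within the cloud of all genes at each level, with medians of 0.40, 0.58 and 1.07 in the 3 ranges of level from high to low.

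Some members share sequence or position with other genes, and their counts can be split or shared between the genes. At the 3′ end, 8 members had another gene annotated over the same bases. In 6 members over 10% of the 50-base stretches of the last 500 bases occur in another gene, most in Trim5 (36.9%, with Trim12c), so their values are uncertain. Trim47, Trim25 and Trim28 were not among these 6.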

How the data were processed

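Bulk RNA-seq of 9 sorted microglial samples was analysed from the CPM table the authors deposited, in which every library sums to 1000000. Reads were processed with bcl2fastq, STAR and HTSeq on mm10, per the submitters' processing notes; the tools' versions, the annotation and the strandedness were not given there. Whole reads were recovered from the CPM steps for 100% of values (tolerance 1e-06). Main tests used limma 3.58.1 in R 4.3.3 on log2(CPM + 1), with all 3 times in the model and genes of at least 1 CPM in 3 libraries. Alternatives were edgeR 4.0.16 and DESeq2 1.42.0 on the recovered reads, other pseudocounts, filters and scalings, a replicate block and each replicate left out. The code was tested on simulated data. Members and lists were chosen with earlier results of these data known. Members named in full were those called in any comparison or at an unadjusted p under 0.05 in a comparison, the 5 most abundant, and Trim21, Trim25, Trim28, Trim47 and Trim8. In the other lists, called genes, or else the smallest p, were named. Positions came from GENCODE M21.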

Additional observations from a re-analysis of the deposited data

How the results depend on the processing

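Over 15 member results and 21 alternatives, 299 of 314 values kept direction and side of the threshold, 9 lost their call (all Trim47, day 90 against day 7) and 6 changed sign. The Trim47 change stayed between 0.93 and 1.39, with adjusted p from 0.00311 to 0.533; the call was lost with a pseudocount of 0.1 (0.0598), no filter (0.533), edgeR (0.147), the 2 times alone (0.0966), and without replicate 2 (0.0972) or 3 (0.211) of day 7, 4 of day 30 (0.0522), or 3 (0.258) or 4 (0.111) of day 90. The count of members called was therefore 0 there, 0 to 1 over replicates left out. For any time difference 1 member was called with DESeq2, a robust spread or the replicate block, and 0 to 1 with replicates left out. The median member at day 30 against day 7 ran from 0.0281 to 0.29 with replicates left out.

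Signs changed in members whose change was not called. From day 7 to day 90, Trim41 was 0.0348 with the replicate block, 0.14 without replicate 4 of day 7 and 0.11 without replicate 3 of day 90; Trim35 was -0.0049 without replicate 3 of day 7; Trim21 was 0.27 without replicate 4 of day 7 and 0.14 without replicate 3 of day 90. With single replicates left out, Trim41 ran from -0.13 to 0.14, Trim35 from -0.0049 to 0.66 and Trim21 from -0.79 to 0.27. The neuronal TRIM median for these days turned from -0.09 to 0.28 with the block.

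Counts over all genes moved more. Day 30 against day 7 gave 3 genes with pseudocount 5, 2 after quantile scaling, 34 with DESeq2, 10 with the block and 0 to 8 with replicates left out. Day 90 against day 7 gave 1 without a filter, 22 with edgeR, 130 with DESeq2, 18 with the 2 times alone and 18 to 62 with replicates left out. Day 90 against day 30 gave 0 without a filter, 27 with DESeq2, 5 with the 2 times alone and 4 to 18. Any time difference gave 15 with pseudocount 0.1, 0 without a filter, 16 with edgeR, 53 with DESeq2 and 11 to 52. The causes were not tested. Same-numbered libraries deviated together by correlations of only -0.04 to 0.04 (7 pairs), beside -0.06 to 0.04 for the 20 other pairs across times. Whether the numbers mark libraries handled together was not tested.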
